A study of Gallus gallus with 8 samples.

Results

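Neural cell adhesion and guidance molecules were followed in the hypothalamus of growing chickens. The set was made of spots whose gene symbol in the platform annotation was NFASC, NRCAM or L1CAM, or began with CADM, CDH and a number, PCDH, NCAM, CNTN, NRXN, NLGN, EPHA, EPHB, EFNA, EFNB, SEMA, PLXN or ROBO. These were 72 of the 19200 spots on the array, and after spots of 1 accession had been averaged they gave 68 clones of 38 genes, out of 17708 clones in all. Of the 68, 31 clones of 21 genes were bright enough to be tested, and they make no complete account of the families. NRCAM, L1CAM, EPHA and EFNA had no spot by this rule. The prefix CNTN also took in CNTNAP1, a protein that associates with contactins and is not one itself.

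The birds belonged to 2 lines, one fat (FL) and the other lean (LL), and were sampled at weeks 1, 3, 5 and 7. Each of the 8 line-by-week groups was measured on 4 arrays, numbered here as replicates 1 to 4, and the design text calls these biological replicates. On each of the 32 arrays (a spotted cDNA design) the Cy3 channel held the RNA of 1 hypothalamus sample. The Cy5 channel held a pool of equal parts of all samples. Some clones lay on 1 side of 0 in all 8 group means, as NFASC block 2 (0.33 to 0.65) and CNTN1 block 41 (-0.65 to -0.21). A pool of all samples cannot be below or above every group, so the sign of a log2 ratio is not read as a level against the pool. Ratios of a clone are compared between groups. All groups were reared alike, as broilers, the labels name no treatment, and the sources used here do not state the birds' sex.

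Adhesion molecules hold neurons and glia to their neighbours, either by binding their own kind on the next cell, as cadherins and NCAM do, or by binding a different protein, as neurexins bind neuroligins. Guidance molecules act between cells in pairs of ligand and receptor: semaphorins signal through plexins, ephrins through Eph receptors and Slits through ROBO proteins, and they steer axons and shape blood vessels. In the young brain both groups take part in axon growth, in the assembly of synapses and in the building of the nodes along myelinated axons.

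The median Cy3 signal of an array lay between 2.57 and 8.45 times its local background, with group means between 3.96 (FL week 1) and 6.05 (LL week 1). By replicate number, over 8 arrays each, the means were 3.63 ± 0.709, 4.36 ± 0.694, 5.68 ± 1.18 and 6.84 ± 1.22 (SD). Clones were called above background where they outshone, in Cy3, 95% of the array's 960 empty spots, and between 9 and 45 of the 68 adhesion clones did so on an array. LL week 3 replicate 1 and FL week 7 replicate 3 stood apart from their groups, with mean correlations to the other arrays of -0.19 and -0.11, against 0.167 for the next lowest array (7917 tested clones). The hypothalamic neuropeptides were thinly covered: 2 of 14 listed genes, POMC and NPY, were on the array, and both were above background on some array. Of the neuron markers, 3 of 8 genes were on the array and all of their 4 clones were tested. Of 7 anterior pituitary genes, 6 were on the array, and 3 of their 9 clones were above background on every array. The RNA was of bulk tissue, in which fewer cells of a type and less RNA per cell cannot be told apart.

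The adhesion clones were as easy to measure as the rest of the array: 45.6% of them were tested against 44.7% of all clones, and 27.9% were never above background against 27.3%. Families differed. All 3 clones of NFASC, the only L1 family gene, were tested, and so were 4 of 5 CADM clones, 2 of 3 of NCAM1 and 5 of 8 plexin clones. In contrast, 1 of 8 cadherin clones was tested, that of CDH23, a cadherin known from the tip links of inner ear hair cells. The clones of CDH1 (epithelial cadherin) and CDH2 (neural cadherin) were above background on 0 of 32 arrays. EFNB1 and EFNB2, membrane-bound ephrin ligands, and EPHB3, a receptor of this ligand class, had 1 clone each, none of which was ever above background. ROBO4, a roundabout protein of blood vessels, passed on 1 array. A dim clone shows only that its spot was not well above background here.

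**Figure D1:**
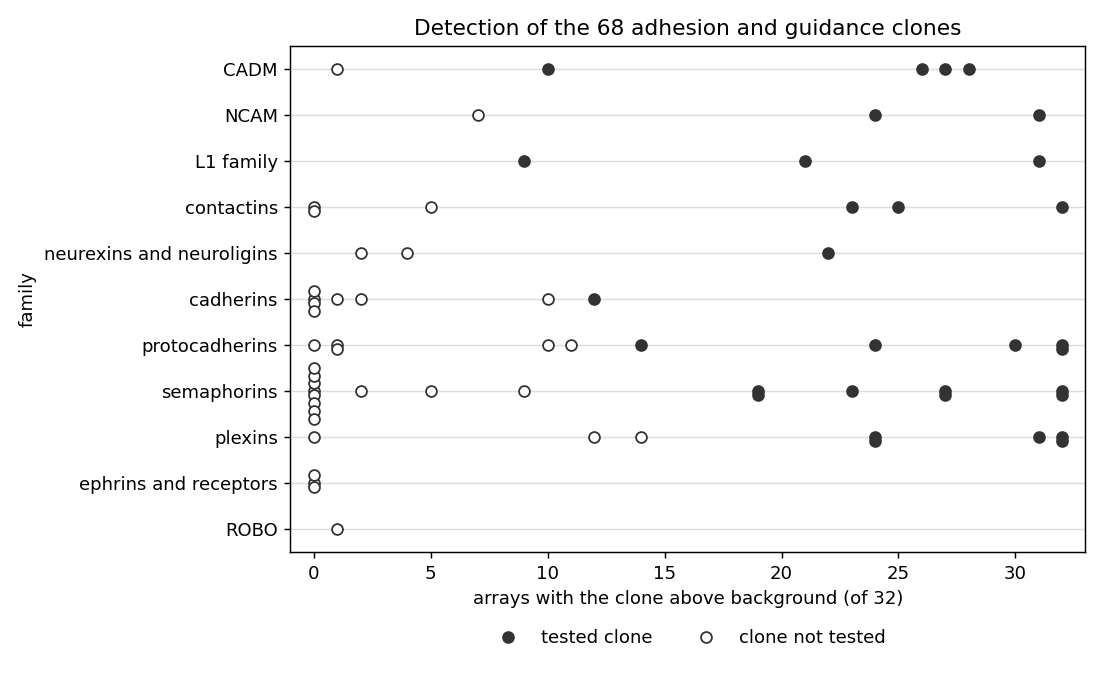
Number of the 32 arrays (horizontal axis) on which each of the 68 clones was above background, by family (vertical axis); filled points are tested clones and open points are clones not tested. The plexins and semaphorins reach all 32 arrays with 2 clones each, whereas the 3 clones of ephrins and their receptor lie at 0.

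Beyond the 31 tested clones, 26 were too dim, 7 were dim and had too few values, and 4 had no value on any array (1 clone each of CDH5, SEMA3G, SEMA6D and SEMA7A). The untested genes included NRXN3, a presynaptic partner of neuroligins that passed on 4 of 32 arrays, CNTNAP1, a partner of contactins at the paranodal junction with 5 arrays at most, CDH13, a cadherin anchored in the membrane by a lipid with 10 arrays, and PCDH8, a neuronal protocadherin with 11 arrays. Only 7 clones were above background on all 32 arrays. They were those of CNTN1 (block 36), PLXNA1 (block 3), PLXNC1 (block 8), PCDH12 (block 27), PCDHGC3 (block 37, sub-row 8), SEMA3B (block 1) and SEMA5B (block 37), where the block is the printing block that serves to tell clones of a gene apart. CNTN1, an axonal contactin, had the brightest tested clone of the set, with a mean log2 brightness of 14.74. It was followed by SEMA5B, a membrane semaphorin (14.6), and PLXND1, a semaphorin receptor known from blood vessels (13.99). The PLXND1 mean was over 24 arrays, with no value on the replicate 1 arrays. That of PLXNA1 block 3 (13.93) was over 32, so the third rank is uncertain. Brightness also depends on the length and printing of a clone, so it ranks the spots and not the transcripts.

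Group means of the 31 clones varied little. The range of a clone's 8 group means had a median of 0.37 log2 units (lowest 0.08, highest 1.09), beside a median SD within groups of 0.20. The widest range, 1.09, belonged to CADM1 (blocks 10 and 37), a synaptic adhesion molecule of the immunoglobulin family, whose mean ran from -0.60 in FL at week 1 to 0.50 in LL at week 7. That clone was above background on 0 of 4 arrays in the first of these groups and on 1 of 4 in the second, so its range and rank are uncertain. The next widest range among the clones was that of PLXNA1 block 6, a plexin that takes semaphorin signals into neurons, from 0.17 in FL at week 1 to 0.98 in FL at week 5. On the FL arrays of week 1 PLXNA1 block 6 read 0.71, 0.50, 0.76 and -1.28. The low end of its range thus rests on 1 array, and its range and rank are uncertain too. That clone also varied most within groups, with a median SD of 0.44.

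**Figure D2:**
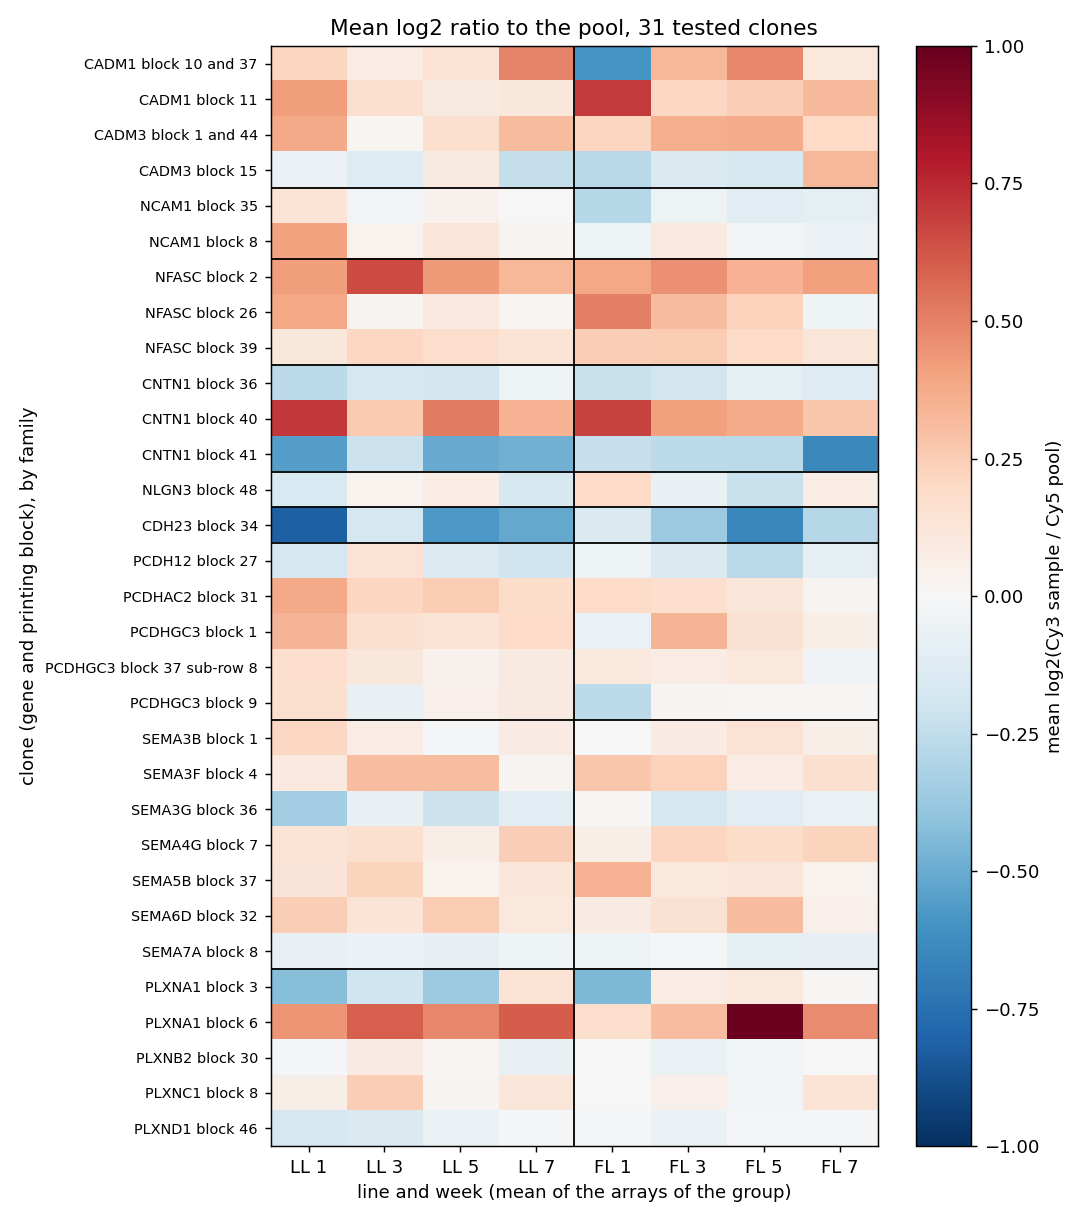
Mean log2 ratio of the sample to the pool (colour) for the 31 tested clones (vertical axis, by family) in the 8 groups (horizontal axis, LL and FL at weeks 1, 3, 5 and 7). The darkest blue cell is CDH23 in LL at week 1 (-0.82), CADM1 blocks 10 and 37 stand at -0.60 in FL at week 1, and the darkest red cell is PLXNA1 block 6 in FL at week 5 (0.98).

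The first question was whether these transcripts changed with age. Between weeks 1 and 7, with the lines averaged, no adhesion clone passed limma's moderated test after Benjamini-Hochberg adjustment over the 7917 tested clones (0 of 31), where 2.55% of all tested clones did. At an unadjusted p under 0.05 there were 6 adhesion clones (19.4%, 4 higher and 2 lower at week 7), against 18.9% of all. The median difference was -0.03 for the 31 clones and -0.02 over all clones, with 12 positive and 19 negative. A moderated F test of any difference among the 4 ages also called 0 of 31, against 0.922% of all clones. By that test 3 clones had an unadjusted p under 0.05 (9.68%, against 12.1% of all). They were CADM1 blocks 10 and 37, NFASC block 26 and PLXNA1 block 3.

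NFASC, neurofascin, anchors the proteins of the axon initial segment and of the nodes of Ranvier, and its block 26 clone had the smallest p of the set between weeks 1 and 7. At week 1 the log2 ratio of that clone was 0.12, 0.50, 0.64 and 0.29 on the LL arrays and 0.80, 0.52, 0.45 and 0.24 on the FL arrays. At week 7 it was 0.30, -0.24, -0.16 and 0.16 in LL, and 0.23, 0.26, -0.89 and 0.25 in FL. All 8 week 7 arrays lay below the week 1 mean of their line, yet the groups overlapped in both lines, and 1 FL array, replicate 3, lay far below its other 3. At week 3 the LL arrays read -0.00, -0.06, 0.07 and 0.12 and the FL arrays 0.40, 0.15, 0.32 and 0.38. At week 5 the values were -0.10, 0.09, 0.03 and 0.37 in LL and 0.34, 0.06, 0.16 and 0.36 in FL. The FL arrays of week 3 were thus all above the LL arrays of that week, while the lines overlapped at week 5. At week 3, however, the clone was above background on 0 of 4 arrays in LL and 0 of 4 in FL, so this separation is uncertain.

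The difference of NFASC block 26 between weeks 7 and 1 was -0.46 ± 0.13 (SE), with an adjusted p of 0.055 (limma), just outside the threshold of 0.05. This clone was dim, above background on 9 of 32 arrays, and at week 7 on 1 LL array and 0 FL arrays. It reached the 3 arrays needed for testing only in LL at week 1 and in FL at week 5. The first of these is a group that the fall is measured from, so the difference is uncertain. The other NFASC clones, which were brighter, gave -0.03 ± 0.11 (block 2) and -0.05 ± 0.08 (block 39), with adjusted p of 0.901 and 0.774. At the same place of blocks 25, 27 and 28 stood clones with much larger falls between these weeks: an unnamed one (-3.46), TOP2A (-1.10) and STK10 (-2.01), with adjusted p of 3.39e-10, 0.00191 and 3.14e-07. The part of these neighbours in the NFASC value was not tested. The NFASC clone passed when any one of 4 arrays was left out: in LL replicate 1 of week 1 or of week 7, and in FL replicate 4 of week 1 or replicate 3 of week 7.

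CADM1 blocks 10 and 37 came next, at 0.49 ± 0.15 higher in week 7 than in week 1 (7 of 8 arrays, adjusted p = 0.0772). The block 10 and block 37 spots gave -0.09 and 0.33 in LL, and 1.01 and 0.62 in FL. The clone was dim, above background on 1 LL array and 0 FL arrays at each of these weeks. It reached the 3 arrays needed for testing only in LL at week 5, so its difference is uncertain. Its log2 ratios at week 1 were 0.33, 0.19, 0.34 and 0.01 in LL and -0.69, -0.90, -0.18 and -0.63 in FL. At week 3 they were -0.12, -0.15, 0.29 and 0.29 in LL and 0.18, 0.31, 0.18 and 0.66 in FL. The 4 FL arrays of week 1 were therefore the lowest of these 16, and those of week 3 were all above them. At week 5 the ratios were 0.25, -0.17, 0.25 and 0.26 in LL and -0.04, 0.83, 0.60 and 0.52 in FL. At week 7 they were 0.24, 0.46, 0.99 and 0.29 in LL and 0.19, 0.39, -0.67 and 0.51 in FL. In FL, 3 of 4 week 7 arrays were above every week 1 array, and replicate 3 again lay apart. The brighter CADM1 clone, block 11, gave -0.34 ± 0.21 for the same comparison (adjusted p = 0.386), so the clones of this gene differed in sign. A further clone, block 36, was above background on 1 array and was not tested. At the place of the block 10 spot in neighbouring blocks stood GFAP (0.55, adjusted p = 0.154, limma), an unnamed clone (-0.05) and PPIG (-0.06). At that of the block 37 spot stood EFHD1 (0.06) and NPDC1 (0.15). The part of these neighbours in the CADM1 value was not tested.

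PLXNA1 block 3, above background on all 32 arrays, had the widest difference of the set between weeks 7 and 1, at 0.51 ± 0.17 (8 of 8 arrays, adjusted p = 0.102). Its ratios at week 1 were -0.42, -0.02, -0.44 and -0.82 in LL and 0.01, -0.37, -0.43 and -0.998 in FL. At week 7 they were 0.44, 0.02, 0.01 and 0.07 in LL and 0.26, -0.13, -0.19 and 0.12 in FL. The LL groups of these weeks did not overlap and the FL groups did. At week 3 the ratios were 0.52, -0.67, -0.22 and -0.43 in LL and 0.73, 0.09, -0.30 and -0.23 in FL. At week 5 they were -0.27, -0.75, -0.22 and -0.22 in LL and 0.32, 0.35, -0.27 and 0.04 in FL. The replicate 1 arrays of week 3 were the highest of their groups in both lines. PLXNA1 block 3 passed without background subtraction, with print-tip loess, with the authors' log2 ratios, with array weights and with array signal as a covariate. It also passed with the replicate number as a block and without FL week 1 replicate 1. Of the 32 fits with 1 array left out, the latter was the only 1 to pass. Over these 32 fits and the 13 other settings, the passing ones named above included, the difference of block 3 ran from 0.42 to 0.59. Its adjusted p ran from 0.0281 to 0.212 (limma). The call thus depends on the processing. The other PLXNA1 clone, block 6, gave 0.23 ± 0.23 (adjusted p = 0.623). A possible ligand, SEMA6D (a membrane semaphorin that binds PLXNA1), had a mean of 0.25 in LL at week 1 and 0.11 at week 7. In FL these means were 0.08 and 0.05. With the lines averaged the SEMA6D difference was -0.08 ± 0.09 (adjusted p = 0.632, limma). Of the 7 tested semaphorin clones, 2 were positive and 5 negative in that comparison.

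CNTN1 is a contactin of axons and of the paranodal junction, and its 3 clones did not share a direction. The bright block 36 clone had 0.15 ± 0.06 more signal at week 7 (8 of 8 arrays, adjusted p = 0.144), block 40 gave -0.38 ± 0.15 (8 of 8 arrays, adjusted p = 0.16) and block 41 gave -0.17 (adjusted p = 0.701). In all, 7 genes had more than 1 tested clone, and the differences of CADM1, CADM3, CNTN1, NCAM1 and PCDHGC3 between weeks 1 and 7 had both signs among their clones. No check was made here that the printed cDNAs are what the annotation calls them, so each value belongs to its clone.

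The steps between ages gave the same kind of count. From week 1 to week 3, 0 of 31 clones passed (0.139% of all clones did). By limma 4 clones had an unadjusted p under 0.05 (12.9%, against 12.2% of all). These were CADM1 blocks 10 and 37 (0.40 ± 0.15, adjusted p = 0.298), CNTN1 block 40 (-0.36 ± 0.15, 0.316), PLXNA1 block 3 (0.37 ± 0.17, 0.376) and NFASC block 26 (-0.27 ± 0.13, 0.398), the first numbers being log2 differences and the second adjusted p-values. From week 3 to week 5, 0 of 31 passed, where 0% of all clones did. By limma 1 clone had an unadjusted p under 0.05 (3.23%, against 1.98% of all). This was PCDH12, a protocadherin known from endothelium, with -0.20 ± 0.09 (8 of 8 arrays, adjusted p = 0.996). Its ratios were 0.09, 0.04, 0.57 and -0.12 in LL and 0.01, -0.01, -0.39 and -0.19 in FL at week 3, and -0.25, -0.10, -0.03 and -0.18 in LL and -0.15, -0.40, -0.18 and -0.34 in FL at week 5. The arrays of both ages overlapped, and 1 LL array of week 3 was well above the rest.

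From week 5 to week 7, 0 of 31 passed, where 0% of all clones did. By limma 1 clone had an unadjusted p under 0.05 (3.23%, against 1.01% of all). It was SEMA6D block 32, with -0.20 ± 0.09 (8 of 8 arrays, adjusted p = 1). Its ratios were 0.07, 0.31, 0.07 and 0.55 in LL and 0.12, 0.24, 0.30 and 0.59 in FL at week 5, and 0.11, 0.11, 0.11 and 0.11 in LL and 0.01, 0.14, -0.14 and 0.21 in FL at week 7. In LL the week 5 values of 0.31 and 0.55 lay above all of week 7, and in FL those of 0.24, 0.30 and 0.59 did. The remaining week 5 arrays lay below those of week 7 in LL and within their range in FL. SEMA4G, another membrane semaphorin, followed with 0.11 ± 0.07 and PLXNC1, a receptor of SEMA7A, with 0.13 ± 0.12, both with an adjusted p of 1.

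Within FL, 1 of 31 clones passed between weeks 1 and 7, beside 1.09% of all tested clones, and it was higher at week 7, as were 0.707% of all. The clone was block 15 of CADM3, an adhesion molecule of axons and synapses that binds CADM1 on the facing cell. Its log2 ratios in FL were 0.05, -0.22, -0.59 and -0.34 at week 1, -0.30, -0.08, -0.11 and -0.08 at week 3, and -0.32, -0.19, -0.25 and 0.14 at week 5. At week 7 they were 0.43, 0.54, -0.07 and 0.44. Replicates 1, 2 and 4 of week 7 were above every other FL array, while replicate 3 fell among the younger ones, so that the groups of weeks 1 and 7 overlapped. The difference was 0.61 ± 0.14 (SE, n = 4 arrays each), a fold of 1.53, with 4 of 4 arrays above the week 1 mean and an adjusted p of 0.0252 (limma).

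In LL the same clone did not show this pattern. Its ratios were -0.06, -0.07, -0.09 and -0.01 at week 1, -0.16, -0.19, -0.12 and -0.06 at week 3, 0.21, 0.30, -0.12 and -0.04 at week 5, and -0.49, 0.03, -0.34 and -0.16 at week 7. Of the LL arrays of week 7, 3 of 4 lay below every one of week 1, with a difference of -0.18 ± 0.14 (adjusted p = 0.693). The change in FL minus the change in LL, a contrast added after the values of each line had been seen, was 0.79 ± 0.19 with a 95% interval of 0.40 to 1.18 and an adjusted p of 0.833. In that contrast 0 of 31 adhesion clones and 0% of all clones passed by limma. Of the 31, 1 had an unadjusted p under 0.05, CADM3 block 15 (3.23%, against 4.22% of all). The rise in FL is therefore not shown to differ from the change in LL.

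**Figure D3:**
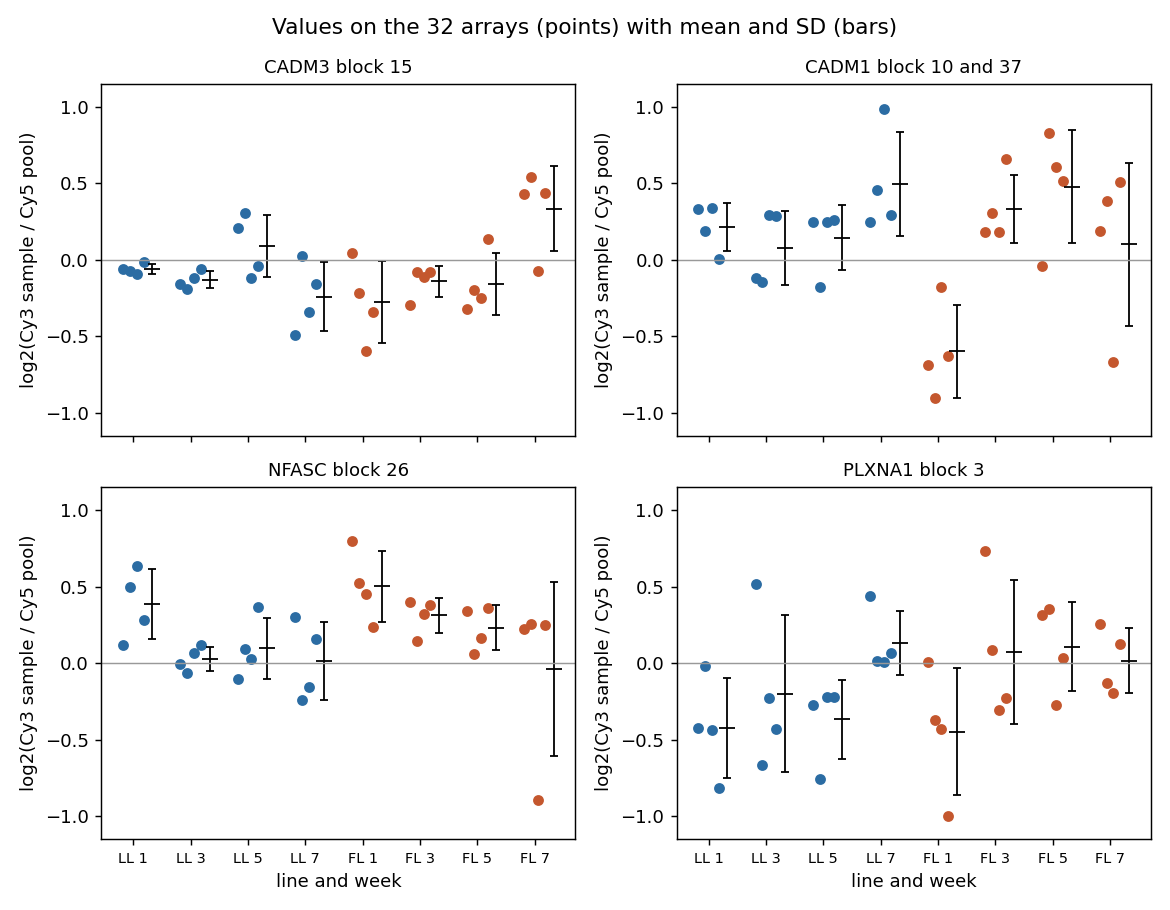
Log2 ratio of the sample to the pool (vertical axes) on each of the 32 arrays (points), with mean and SD (bars, n = 4 arrays), for CADM3 block 15, CADM1 blocks 10 and 37, NFASC block 26 and PLXNA1 block 3 in the 8 groups (horizontal axis, line and week). For CADM3, 3 of the 4 FL arrays of week 7 lie between 0.43 and 0.54 and the other lies at -0.07; for CADM1 the FL arrays of week 1 lie between -0.90 and -0.18.

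The other CADM3 clone, averaged from spots of blocks 1 and 44 and of similar brightness (11.18 against 11.34 log2 units), gave -0.02 ± 0.31 in FL between weeks 1 and 7 (adjusted p = 0.987, 95% interval -0.65 to 0.62). Its standard error was larger than that of block 15, at 0.14. The call for block 15 was lost when any of FL week 1 replicates 2, 3 and 4 or FL week 7 replicates 1, 2 and 4 was left out, with differences of 0.51 to 0.63 and adjusted p between 0.0516 and 0.126. Without background subtraction the difference was 0.27 (adjusted p = 0.115). Fitted on only the arrays compared, which leaves the difference at 0.61 by construction, the adjusted p was 0.416.

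Clones of some cell type markers moved over the same contrast, and no list was tested as a whole. In FL, 1 clone of CRMP1, a protein of growing axons, rose by 1.13 (adjusted p = 0.0257), 1 of ENPP2, an enzyme of oligodendrocytes, by 1.52 (0.0382) and 1 of CLU, which astrocytes make, by 0.42 (0.0217), while HBBA, a globin of red cells, fell by 1.33 (adjusted p = 0.00244). Of the tested clones, 5 of 8 for immature neurons, 4 of 5 for oligodendrocytes, 4 of 4 for astrocytes, 3 of 4 for neurons and 4 of 6 for the anterior pituitary were positive. Negative were 2 of 2 for hypothalamic neuropeptides, 2 of 2 for microglia and 3 of 4 for endothelium and mural cells. The mean over the 8 clones of immature neurons ran from -0.61 to -0.17 on the FL arrays of week 1 and from -0.73 to 0.19 on those of week 7. With the lines averaged the same clones were called for CRMP1 (0.67, adjusted p = 0.0391), ENPP2 (1.24, 0.0128), CLU (0.46, 0.000139) and HBBA (-1.35, 6.99e-06), and in LL those of CLU (0.51, 0.0101) and HBBA (-1.37, 0.0015). The part of these markers in the values of CADM3, NFASC, CADM1 and PLXNA1 was not tested.

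In FL, 4 clones had an unadjusted p under 0.05 by limma (12.9%, against 14.5% of all clones). Besides CADM3 block 15 they were CADM1 blocks 10 and 37 (0.70 ± 0.22, adjusted p = 0.119), NFASC block 26 (-0.54 ± 0.18, 0.156) and SEMA5B, a membrane semaphorin (-0.31 ± 0.14, 0.301). No FL array measured the CADM1 clone above background at either week, so no fold is given for it. The NFASC clone was above background on 2 FL arrays at week 1 and none at week 7. Its mean Cy3 signal, not set against the pool, was 1.61-fold brighter at week 1, a fold that is uncertain this near background. SEMA5B ratios were 0.13, 0.49, 0.42 and 0.34 at week 1 and 0.32, -0.19, 0.09 and -0.08 at week 7, with overlap through replicate 1 of both weeks.

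Within LL, 0 of 31 clones passed between weeks 1 and 7 by limma, beside 0.0758% of all clones. At an unadjusted p under 0.05 there were 2 (6.45%, against 9.4% of all). CNTN1 block 36 read -0.27, -0.12, -0.25 and -0.39 at week 1 and -0.03, 0.02, -0.16 and -0.02 at week 7, a difference of 0.21 ± 0.08 (adjusted p = 0.432). Its arrays overlapped by 1 array on each side. PLXNA1 block 3, with the values given above, differed by 0.56 ± 0.24 (adjusted p = 0.494).

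The second question was whether the lines differed. Across the ages, FL minus LL, 0 of 31 adhesion clones passed by limma, beside 0.0505% of all clones. At an unadjusted p under 0.05 there were 2 (6.45%, against 4.88% of all). NCAM1 is the neural cell adhesion molecule that carries polysialic acid in the young brain, and its block 35 clone gave -0.17 ± 0.08 (11 of 16 arrays, adjusted p = 0.827). Its group means at weeks 1, 3, 5 and 7 were 0.13, -0.03, 0.05 and 0.00 in LL and -0.28, -0.05, -0.11 and -0.09 in FL, so that the gap was widest at week 1. PCDHAC2, a protocadherin of the alpha cluster that neurons use in self-recognition, gave -0.13 ± 0.06 (14 of 16 arrays, adjusted p = 0.827). Its group means were 0.38, 0.22, 0.25 and 0.19 in LL and 0.19, 0.17, 0.12 and 0.03 in FL, lower in FL at each age by less than or about the SD of the groups. The median difference of the 31 clones was -0.0017, against 0.0084 over all clones.

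At week 1, 0 of 31 clones passed for FL minus LL, beside 0.24% of all clones, and 7 had an unadjusted p under 0.05 (22.6%, 3 higher and 4 lower in FL), against 17.7% of all clones. The smallest p was that of CADM1 blocks 10 and 37, at -0.81 ± 0.22 with an adjusted p of 0.0793. Every FL array of that week lay below every LL array. However, 0 FL arrays and 1 LL array of week 1 measured the clone above background. Its mean Cy3 signal, not set against the pool, was 1.21-fold brighter in LL, a fold that is uncertain this near background. The LL arrays of that week also had more signal over background across all spots (6.05 against 3.96). The spots behind this clone gave -0.72 (block 37) and -0.67 (block 10, 13 arrays with a value). Both were smaller in size than the -0.81 of the clone, whose average takes in block 10 only on arrays where it has a value. CADM1 block 11 differed by 0.28 ± 0.29 (adjusted p = 0.617), so the direction was that of 1 of the 2 tested clones.

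PCDHGC3, of the gamma cluster of protocadherins, came second at week 1. On its block 1 clone the ratios were 0.17, 0.21, 0.32 and 0.66 in LL and -0.20, 0.24, -0.06 and -0.27 in FL, with 1 FL array inside the LL range, and the difference was -0.41 ± 0.12 (adjusted p = 0.108). PCDHGC3 block 9 gave -0.42 ± 0.22 (adjusted p = 0.319), and the bright clone of block 37 gave -0.06. On block 9 the lines only just did not overlap, with 0.0533 the lowest LL value and 0.0449 the highest FL value. That clone was above background on 2 LL arrays and 1 FL array of week 1, and on 14 of 32 in all. Clustered protocadherins share exons with their neighbours in the cluster, and the sources used here do not give the stretch that each clone holds, so their isoforms may not be told apart.

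NCAM1 block 35 read 0.21, -0.09, -0.01 and 0.43 in LL and -0.30, -0.12, -0.40 and -0.31 in FL at week 1, with no overlap. Its difference was -0.42 ± 0.15 (adjusted p = 0.17), and that of the brighter NCAM1 clone, block 8, was -0.44 ± 0.23 (adjusted p = 0.306). The clones of CDH23 (0.68 ± 0.31, adjusted p = 0.251), SEMA3G, a secreted semaphorin (0.37 ± 0.13, 0.166), and NLGN3, a neuroligin of the receiving side of synapses (0.34 ± 0.15, 0.245, from 2 arrays per line), were higher in FL. The CDH23 clone was above background on 2 LL arrays and 3 FL arrays of week 1, and on 12 arrays in all. That clone reached the 3 arrays needed for testing only in FL, at weeks 1 and 3, so its difference is uncertain. SEMA3G read -0.45, -0.33, -0.34 and -0.29 in LL and 0.22, -0.22 and 0.05 on the 3 FL arrays with a value, which did not overlap. SEMA3B, another secreted semaphorin, differed by -0.22 ± 0.09 (adjusted p = 0.228).

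Of the marker clones, only the same CRMP1 clone was called between the lines at week 1, with -1.19 (adjusted p = 0.0369, limma). No list was tested as a whole, and the counts of signs rest on few clones. Of the tested clones, 7 of 8 clones of immature neurons, 5 of 5 of oligodendrocytes, 4 of 4 of astrocytes and 3 of 4 of neurons were negative. Other lists went the other way. Positive were 2 of 2 clones of hypothalamic neuropeptides, 2 of 2 of microglia, 3 of 4 of endothelium and mural cells and 4 of 6 of the anterior pituitary. The mean of the immature neuron clones ran from 0.07 to 0.33 on the LL arrays against -0.61 to -0.17 on the FL arrays. The FL arrays of that week also had the lowest signal over background, 3.96 ± 0.718 (SD, n = 4) against 6.05 ± 1.76 in LL. The part of either in the values of CADM1, NCAM1 and PCDHGC3 was not tested.

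**Figure D4:**
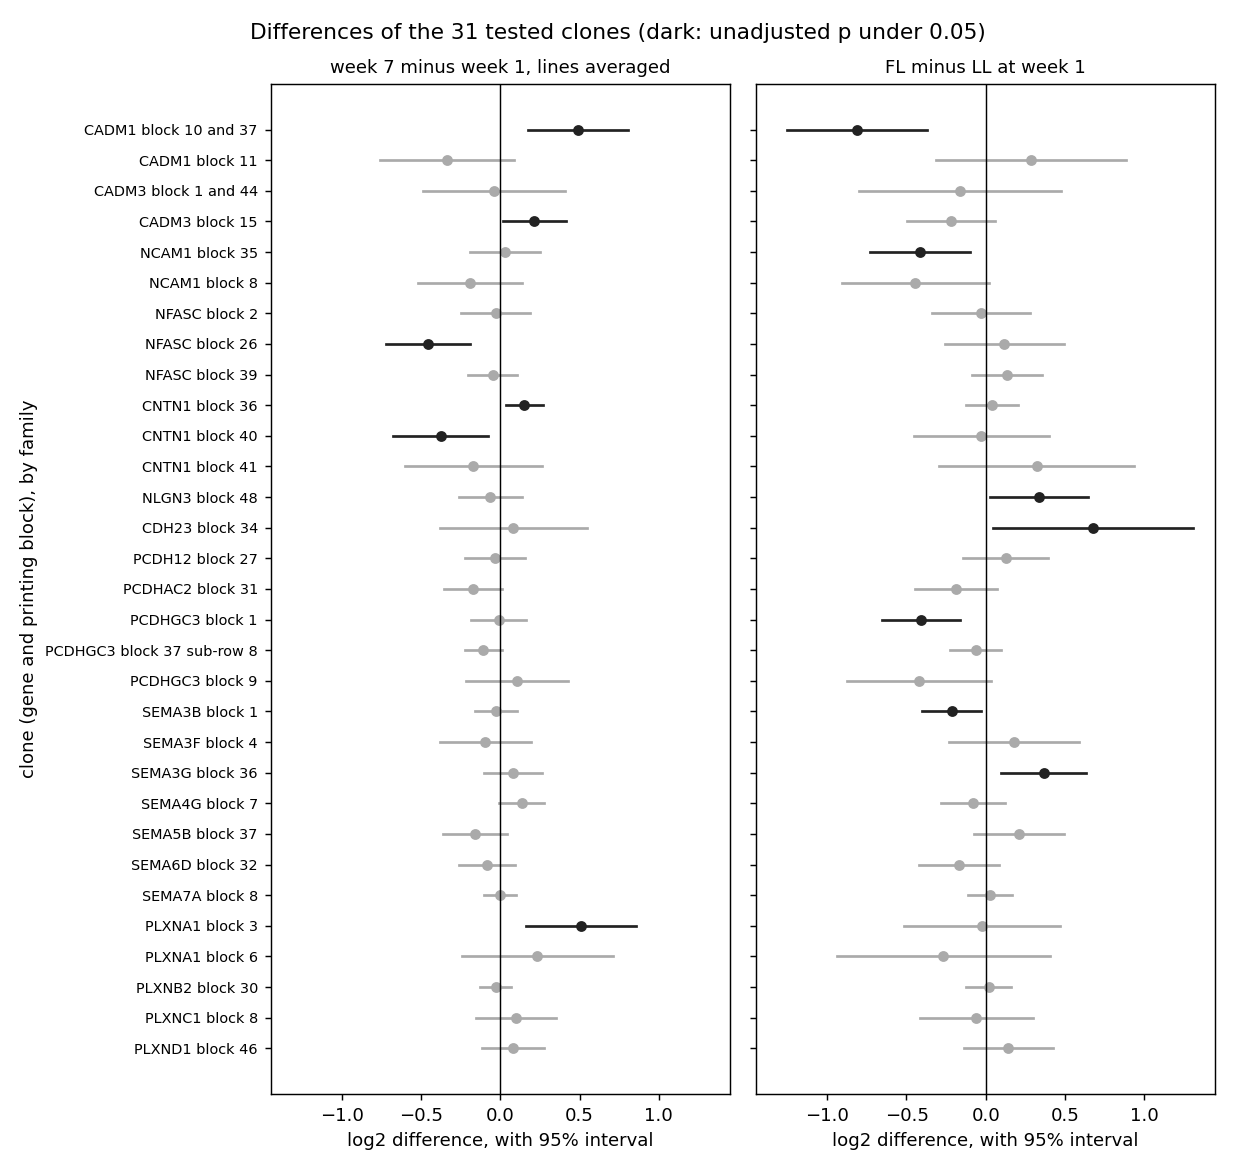
Log2 differences of the 31 tested clones (points, with 95% intervals as lines) for week 7 minus week 1 with the lines averaged (left) and for FL minus LL at week 1 (right); dark points have an unadjusted p under 0.05. In neither panel does a clone pass after adjustment, and the widest dark differences are 0.51 (PLXNA1 block 3) on the left and -0.81 (CADM1 blocks 10 and 37) on the right.

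At the later weeks 0 of 31 clones passed at week 3, week 5 or week 7 by limma, where 0% of all clones passed at each. At an unadjusted p under 0.05 were 6.45%, 3.23% and 3.23% of the adhesion clones, against 2.27%, 2.83% and 3.6% of all. At week 3, PCDH12 (-0.29 ± 0.13) and PLXNB2, a receptor of membrane semaphorins (-0.14 ± 0.07), had an unadjusted p under 0.05, both with an adjusted p of 0.999. PLXNB2 read 0.15, 0.07, 0.02 and 0.08 in LL and -0.09, -0.08, -0.13 and 0.03 in FL, so that 1 FL array fell within the LL range. At week 5 this held for NLGN3 (-0.29 ± 0.12, adjusted p = 1), which read 0.19, 0.09 and -0.06 in LL and -0.26, -0.16 and -0.25 in FL on the 3 arrays per line that measured it. Those groups did not overlap, and the sign was opposite to that of week 1. At week 7 it held for CADM3 block 15 (0.57 ± 0.14, 4 of 4 arrays, adjusted p = 0.775). The lines overlapped, as FL replicate 3 (-0.07) lay within the LL range of -0.49 to 0.03. Over 11 other settings and 32 fits with 1 array left out, this difference ran from 0.03 to 0.71.

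Whether the line difference itself varied with age was tested over weeks 3, 5 and 7 against week 1. Of the 31 clones 0 passed by limma, beside 0% of all clones, and 4 had an unadjusted p under 0.05 (12.9%, against 6.82% of all). They were CADM3 block 15 (adjusted p = 0.24), CADM1 blocks 10 and 37 (0.426), PCDHGC3 block 1 (0.584) and NLGN3 (0.586). The differences FL minus LL of CADM3 block 15 were -0.22, -0.01, -0.25 and 0.57 at weeks 1, 3, 5 and 7, and those of CADM1 were -0.81, 0.25, 0.33 and -0.39.

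Among semaphorins and their receptors, 7 and 5 clones were tested. Between weeks 1 and 7 their medians were -0.03 and 0.10, with 2 of 7 semaphorin and 4 of 5 plexin clones positive, and none passed. PLXND1 block 46 read between -0.16 and -0.01 in the group means, PLXNC1 between -0.03 and 0.24, and the SEMA3B clone between -0.01 and 0.21, all on bright spots. PLXND1 block 46, NLGN3 block 48 and the untested CDH13 clone gave no value on any of the 8 replicate 1 arrays, so PLXND1 rests on 3 arrays per group and NLGN3 on 3 or fewer.

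Partners of these molecules were read from lists of guidance genes, cadherin-binding catenins, proteins of the axon and node, and other synaptic and axonal adhesion genes. The last list also names CNTNAP1, whose clones the symbol rule takes in and which were not tested. On the array were 10 of 19, 5 of 6, 6 of 8 and 10 of 40 genes, with 7, 6, 2 and 8 clones tested, and none passed in any comparison by limma. Their median differences between weeks 1 and 7 were -0.0015, -0.18, 0.04 and 0.03. Between FL and LL at week 1 the medians were 0.06, 0.01, -0.28 and 0.06. These week 1 medians hide a spread with both signs in each list. The clones ran from -0.17 to 0.32, -0.72 to 0.28, -0.63 to 0.08 and -0.84 to 0.34.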

How the data were processed

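RNA of chicken hypothalamus was measured on 32 spotted cDNA arrays in 8 line-by-week groups. Per the file headers, the deposited array files hold raw and local background intensity in the Cy3 and Cy5 channels, summed over each spot's pixels, the spot area and quality letters. Per the same file headers they also hold the authors' log2 ratio of normalized Cy3 over Cy5. The scanner and the authors' normalization are not named in the labels or headers. Letters A, X, Y and Z, unsatisfactory per the header key, were left out.

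Here intensity per pixel was corrected with normexp (offset 50), normalized within arrays by loess (span 0.3, 4 iterations, empty spots at weight 0) and averaged over spots of 1 accession with limma 3.58.1 in R 4.3.3. A clone was tested when above background on 3 of 4 arrays of some group and with 2 values in every group; 3.00% of the tested values were missing. One limma model with 8 group means gave all comparisons, two-sided, with Benjamini-Hochberg adjustment over 7917 clones and a threshold of 0.05. The model was tested on simulated data with each clone's spread and missing values, drawn independently for each array. That test does not cover arrays that correlate with each other. The number of arrays limits the precision.

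Spot names in the authors' series table differ from those in the array files: all 64503 table values matched the mean of 4 arrays within 0.005 by place, against 1775 of 30053 by name. Spots sharing an accession correlated in brightness at rho 0.416 (702 pairs) with the array files' names and 0.0115 (657 pairs) with the table's, so the former were used. A further 123 spots of 2 accessions that cover unlike spots were not named. Of the 38 genes, 34 are in the current gene table used for names.

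The genes and lists were chosen with earlier results of these data known. Clones named are those called in any comparison, the 5 with the smallest p in each, the brightest tested one per family, and the other clones of these genes. Clones of partner lists are named only if called. Alternatives covered background, normalization, filters, weights, blocks, covariates and left-out arrays. The contrast of changes between the lines was added after the values were seen.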

Additional observations from a re-analysis of the deposited data

Results flagged for a closer look

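On 15 of 162 groups of 4 arrays checked (9.26%), 1 array lay farther from the other 3 than Dixon's limit allows. Chance alone puts about 5% of such groups past this limit. The check covered the 22 clones called in any comparison or among the 5 with the smallest p in any comparison. Clones named for other reasons were not checked, so the list is not complete for them. Among these was the dimmer PLXNA1 clone, whose FL week 1 replicate 4 read -1.28 against 0.50 to 0.76 in the others. For NFASC block 26, FL week 7 replicate 3 read -0.89 against 0.23 to 0.26 in the others. For CADM1 blocks 10 and 37, LL week 5 replicate 2 read -0.17 against 0.25 to 0.26, and for CADM1 block 11, FL week 3 replicate 3 read -0.0786 against 0.27 to 0.32. PLXNA1 block 3 had LL week 5 replicate 2 at -0.75 against -0.27 to -0.22, and LL week 7 replicate 1 at 0.44 against 0.01 to 0.07. CNTN1 block 36 had FL week 5 replicate 2 at 0.0198 against -0.13 to -0.11. NFASC block 2 had LL week 7 replicate 2 at 0.17 against 0.37 to 0.39, and CADM3 block 15 had FL week 3 replicate 1 at -0.30 against -0.11 to -0.08.

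SEMA4G had FL week 7 replicate 2 at 0.41 against 0.14 to 0.18, and PLXNC1 had LL week 3 replicate 1 at 0.82 against 0.02 to 0.10. NCAM1 block 35 had LL week 5 replicate 4 at 0.16 against 0.00 to 0.02, and PCDHAC2 had FL week 7 replicate 2 at -0.22 against 0.10 to 0.13. On the PCDHGC3 clone of block 37, sub-row 8, LL week 3 replicate 4 read 0.15 against 0.10 to 0.11, LL week 5 replicate 2 read 0.057 against 0.04, and FL week 1 replicate 4 read -0.13 against 0.18.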

How the results depend on the processing

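Of 2420 repeats of 55 single results, 2386 kept their direction and their side of the threshold, 25 came to pass, 8 no longer passed and 1 reversed: SEMA3B, FL minus LL at week 5, was -0.0031 with the authors' log2 ratios, against 0.16 as reported. Between weeks 1 and 7 with the lines averaged, where 0 clones passed, 2 passed without background subtraction and with array signal as a covariate (NFASC block 26 and PLXNA1 block 3 in each), 1 with print-tip loess and 1 with the authors' log2 ratios (PLXNA1), 4 with array weights (those and CADM1 blocks 10 and 37 and CADM3 block 15), and 2 without the 3 arrays that stood apart in earlier work (NFASC and CADM1). Leaving out 1 array gave 0 to 2: 1 (NFASC) without LL week 1 replicate 1, LL week 7 replicate 1 or FL week 1 replicate 4, 2 without FL week 1 replicate 1 (PLXNA1 and CNTN1 block 36) and 2 without FL week 7 replicate 3 (NFASC and CADM1). For any age difference the count was 2 with array weights (CADM1 and CADM3), and 0 to 1 with 1 array left out (CADM1, without FL week 7 replicate 3).

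Within FL the count of 1 became 0 by limma without background subtraction (4 at an unadjusted p under 0.05) and with only the arrays compared (2, with the CADM3 difference unchanged at 0.61), and 0 with the authors' log2 ratios (1) and with the stricter filter (1), neither of which tested CADM3 block 15. It was 2 with array weights and without the 3 arrays (CADM1 besides). With 1 array left out it was 0 to 2: 0 without FL week 1 replicate 2, 3 or 4 or FL week 7 replicate 1, 2 or 4, and 2 without FL week 7 replicate 3. The CADM3 difference ranged from 0.27 to 0.77, with adjusted p from 0.000956 to 0.416. For FL minus LL at week 1 the count was 1 without the 3 arrays (CADM1, adjusted p = 0.0399), and 0 to 2 with 1 array left out (CADM1, 0.0152, and PCDHGC3 block 1, 0.0462, without FL week 7 replicate 3). For the line effect by age it was 0 to 1 (CADM3, without the same array). The other counts did not move. The causes were not tested.

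The replicate number as a block gave 1 clone between weeks 1 and 7 (PLXNA1 block 3, its difference unchanged at 0.51) and changed no other count. Numbers came from file names alone. With group means taken off, same-numbered arrays of different groups correlated between -0.45 and 0.61 (112 pairs, mean 0.09), with 52 pairs above 0.1. Differently numbered arrays of different groups correlated between -0.53 and 0.55 (336 pairs, mean -0.03), with 85 pairs above 0.1. Of 32 arrays, 17 correlated best with their own number. The model reported above holds no term for the number, so its p-values treat same-numbered arrays as independent. Signal over background limits the dim clones, and 31 of the 68 were tested.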
